A study of Homo sapiens with 12 samples.

Results

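The ASCC complex and the enzymes that remove alkyl groups or alkylated bases from DNA were followed here as 7 genes: ASCC1, ASCC2, ASCC3, ALKBH2, ALKBH3, MGMT and MPG. They were chosen by symbol among the 26334 genes of the count tables, and 7 of 7 passed the filter on low counts that left 15352 genes for testing. The RNA came from A549 cells, a human lung adenocarcinoma line, infected with a lentivirus and selected with puromycin at 1 µg/ml for 4 days. Control cells carried the shRNA labelled shControl and RNF113A-depleted cells carried shRNF113A, both in untreated and in Cisplatin-treated form, with 3 libraries in each of the 4 groups. Cisplatin, a platinum drug that crosslinks DNA, was given at 25 µg/ml for 20 h in full growth medium according to the labels, whereas the study's text states its Cisplatin doses in molar units, so the unit of this dose is uncertain. The labels name 1 shRNA against RNF113A, so its effect cannot be told apart from effects of that hairpin on other transcripts.

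RNF113A is a subunit of the spliceosome and a ubiquitin E3 ligase that brings the ASCC complex to sites of alkylation damage. In that complex ASCC3 is the DNA helicase, ASCC2 reads ubiquitin chains through its CUE domain, and ASCC1 is a further subunit. ALKBH3 works with ASCC3 as an oxidative demethylase that prefers single-stranded DNA and RNA, and ALKBH2 does the same chemistry on double-stranded DNA. MGMT takes alkyl groups off guanine onto its own cysteine. MPG is the glycosylase that cuts out alkylated purines and so starts base excision repair.

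The libraries held between 33859097 and 56071514 read pairs, the lowest totals being those of Cisplatin-treated RNF113A-depleted cells (33859097 to 39414380). RNF113A mRNA stood at 19.9 ± 0.397 CPM (counts relative to the scaled library size, given as mean ± SD with n = 3 in every group) in untreated control cells and at 16.0 ± 0.772 CPM in untreated depleted cells. That fall of 0.31 on the log2 scale passed the test (adjusted p = 0.0247), which it no longer did without control replicate 1 or 3 or depleted replicate 1 or 2 (adjusted p = 0.0563 to 0.0940). Under Cisplatin the levels were 29.4 ± 1.95 and 26.7 ± 2.88 CPM, and the difference of -0.14 did not pass (adjusted p = 0.233). These values are of mRNA only, whereas the study assessed the depletion of RNF113A protein in A549 cells by western blot. The keratins KRT8 and KRT18 and the NRF2 targets AKR1B10 and NQO1, all typical of A549, were at 885 CPM or above in all 12 libraries, and CDKN2A, which this line lacks, was at 0. The lung lineage markers SFTPB, SFTPC and NKX2-1 were at or near 0 (at most 0.587 CPM), as were PTPRC, PECAM1, COL1A2 and DCN, which mark blood, vessel and connective tissue cells (at most 0.315 CPM). KRT19 (0.674 to 5.32 CPM) and EPCAM (3.66 to 97.6 CPM) were low or uneven for an epithelial line. Some of these markers moved with depletion: over treated and untreated cells together EPCAM was higher by 3.16 (log2, adjusted p = 2.27e-06) and KRT19 by 1.5 (adjusted p = 0.00480), and AKR1B10 fell by 1.56 (adjusted p = 0.000137) and NQO1 by 0.25 (adjusted p = 0.0156). With Cisplatin, over both backgrounds, KRT18 fell by 1.51 (adjusted p = 3.21e-07) and KRT8 by 1.12 (adjusted p = 1.10e-05). EPCAM fell by 1.00 (adjusted p = 0.00419) and NQO1 by 0.50 (adjusted p = 5.69e-05). NKX2-1, near 0, rose by 1.25 (adjusted p = 0.00679), and KRT19 and AKR1B10 did not pass. The part of these marker shifts in the results on depletion or on Cisplatin was not tested. In RNA from whole cultures, fewer cells and less RNA per cell cannot be told apart.

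Sequences are shown first for the 3 splicing events of these genes with an adjusted p under 0.05 in some comparison: an exon and the first intron of ALKBH2 and an exon of ASCC1. None of them reached the 20 points of inclusion level also asked of a call. They were read from GRCh37, the same assembly as hg19, on the minus strand of the genes and from 5′ to 3′. At splice sites, capitals mark exon bases and lower case marks intron bases.
ALKBH2 exon, acceptor, chr12:109528010-109528032: gccatgtttcctctgcacagGAG
ALKBH2 exon, donor, chr12:109527806-109527816: CAGgtgacacc
ALKBH2 first intron, donor, chr12:109531044-109531054: GAGgtcagtta
ALKBH2 first intron, acceptor, chr12:109530590-109530612: cttctttcctgtggggacagGAT
ALKBH2 first intron, inner acceptor, chr12:109530740-109530762: atcttctgtttcctttctagGAC
ASCC1 exon, acceptor, chr10:73958421-73958443: ttttgtgtctcctaaattagAGA
ASCC1 exon, donor, chr10:73958199-73958209: CAGgcatgagc
The ASCC1 exon ends at a GC donor in place of the usual GT, while both ALKBH2 donors begin with GT. Over the annotated models of the 7 genes, 121 of 121 introns began with GT or GC and ended with AG in this assembly.

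The stop codons that go with these exons are shown with their neighbouring bases, because the exon decides which one ends the reading frame. Here capitals mark the stop codon itself.
ALKBH2 with the exon, chr12:109525999-109526025: cttactaaaaaaTAAaaacatttttaa
ALKBH2 without the exon, chr12:109526112-109526138: acgggagcttacTAAtgatgaaccacc
ASCC1 inside the exon, chr10:73958383-73958409: gaaatgatctggTAGcttttaatcctc
The annotated ALKBH2 form with the exon encodes 261 codons and the form without it 157. The ASCC1 exon carries its own stop codon and belongs to a transcript annotated for nonsense-mediated decay.

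Levels between genes were compared per kilobase of exon, as RPKM, in untreated control cells. ASCC1 (26.9 ± 2.36 RPKM) and MPG (25.8 ± 3.07 RPKM) were highest, with a gap smaller than either SD. ASCC2 (16.8 ± 1.02 RPKM), ALKBH2 (16.3 ± 1.84 RPKM) and ALKBH3 (13.9 ± 1.43 RPKM) followed, of which ASCC2 and ALKBH2 were within their SD. ASCC3 (6.55 ± 1.10 RPKM) and MGMT (6.11 ± 0.601 RPKM) were lowest and again closer than their SD, so that the subunits of the ASCC complex did not have one common mRNA level.

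**Figure D1:**
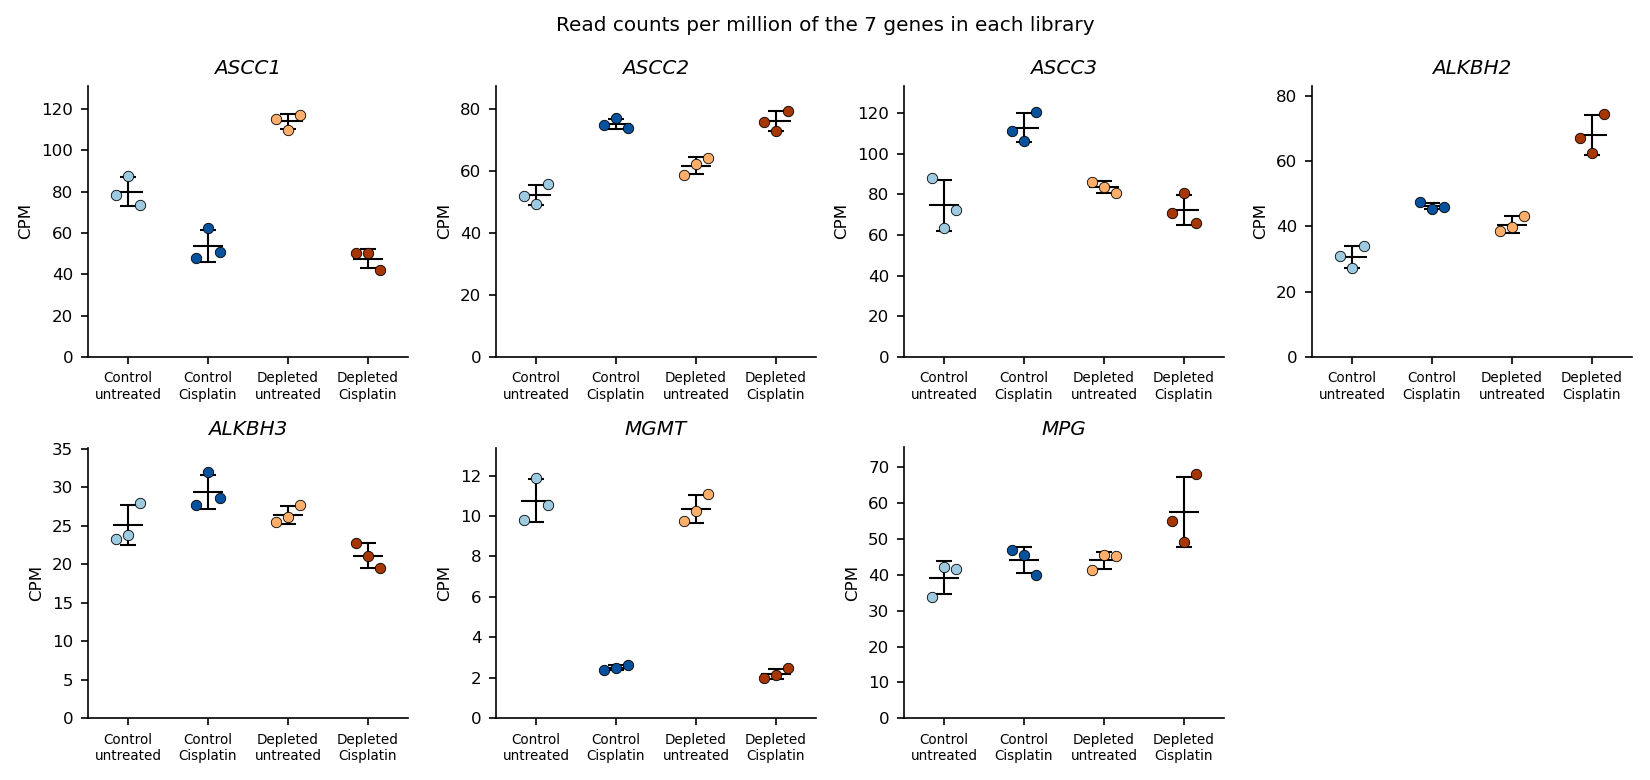
Expression of each of the 7 genes in CPM (vertical axes from 0, 1 panel per gene) in the 4 groups on the horizontal axes. Points are the 12 libraries and lines the mean ± SD of 3; MGMT drops in both Cisplatin groups, and ASCC1 is highest in untreated depleted cells (110 to 117 CPM).

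The question of how Cisplatin changed these transcripts was put first over both cell backgrounds together. MGMT fell 4.49-fold and ASCC1 fell 1.89-fold, while ALKBH2 rose 1.59-fold, ASCC2 1.33-fold and MPG 1.21-fold. ASCC3 and ALKBH3 did not pass the test over both backgrounds. Of the 7 genes 5 were thus called at an adjusted p under 0.05, beside 66.8% of all genes tested (34.8% higher and 32.1% lower), and only MGMT was past 2-fold, beside 21.5% of all genes.

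MGMT showed the widest separation. Untreated control cells had 9.81, 11.9 and 10.6 CPM and untreated depleted cells 9.74, 10.2 and 11.1 CPM. After Cisplatin control cells had 2.37, 2.502 and 2.62 CPM and depleted cells 1.97, 2.16 and 2.47 CPM. Each of the 6 treated libraries lay below each of the 6 untreated ones, and the groups of the 2 shRNAs overlapped in both states. The fall was 2.17 on the log2 scale (SE 0.10, adjusted p = 5.94e-10). It rested on 355 to 467 reads in the untreated control libraries and 61 to 70 reads in the treated depleted libraries.

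ASCC1 had the largest difference among the subunits of the complex. Control cells had 78.6, 87.6 and 73.8 CPM untreated and 48.1, 62.3 and 50.6 CPM treated. Depleted cells went from 115, 110 and 117 CPM to 50.4, 50.2 and 42.2 CPM. The treated libraries of each background lay below all its untreated ones, and the untreated depleted libraries were the highest of all. The fall was 0.57 in control cells (SE 0.11, adjusted p = 0.000644) and 1.26 in depleted cells (SE 0.11, adjusted p = 1.11e-06), both log2.

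ASCC3, the helicase, had 88.1, 63.4 and 72.0 CPM in untreated and 111, 106 and 120 CPM in treated control cells. In depleted cells it had 86.2, 83.7 and 80.6 CPM untreated and 70.8, 80.5 and 66.0 CPM treated. It therefore rose in control cells, with no overlap of the groups, by 0.60 (SE 0.11, adjusted p = 0.000693). In depleted cells the difference was -0.20 (SE 0.11, adjusted p = 0.136). That second value passed when only the 6 libraries compared were fitted (-0.26, adjusted p = 0.00867) and without treated depleted replicate 2 (-0.32, adjusted p = 0.0385).

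ASCC2 rose in both backgrounds, from 52.4 ± 3.17 to 75.3 ± 1.71 CPM in control cells and from 61.8 ± 2.82 to 76.2 ± 3.27 CPM in depleted cells. The gain was 0.52 in the former (adjusted p = 4.50e-05) and 0.30 in the latter (adjusted p = 0.00237), with no overlap in either. The treated libraries of both backgrounds lay between 72.98 and 79.5 CPM.

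Among the repair enzymes, ALKBH2 rose under both backgrounds. Control cells had 30.9, 27.1 and 33.9 CPM untreated and 47.3, 45.3 and 45.9 CPM treated, a gain of 0.59 (SE 0.10, adjusted p = 0.000209). Depleted cells had 38.4, 39.9 and 43.2 CPM untreated and 67.0, 62.4 and 74.4 CPM treated, a gain of 0.75 (SE 0.10, adjusted p = 2.73e-05). All treated libraries were above all untreated ones.

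ALKBH3, the partner of ASCC3, had 25.1 ± 2.57 and 29.4 ± 2.25 CPM in untreated and treated control cells, and the difference of 0.23 did not pass (adjusted p = 0.0599; without untreated control replicate 3 it was 0.32, adjusted p = 0.0192). In depleted cells it fell from 26.4 ± 1.17 to 21.1 ± 1.64 CPM, by 0.32 (adjusted p = 0.0123). That call was lost without treated depleted replicate 3 (adjusted p = 0.0530) and with scaling by library size (adjusted p = 0.0776), which also took the difference in control cells past the threshold (0.33, adjusted p = 0.0166). MPG went from 39.2 ± 4.66 to 44.1 ± 3.69 CPM in control cells, a difference of 0.17 (adjusted p = 0.260). In depleted cells it rose from 44.03 ± 2.36 to 57.5 ± 9.70 CPM, by 0.38 (adjusted p = 0.0176). Treated depleted replicate 3, at 68.2 CPM, was the highest library, and without it the gain was 0.24 and did not pass (adjusted p = 0.0936), nor did it without untreated depleted replicate 1 (adjusted p = 0.0678).

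By background, 5 of the 7 genes changed with Cisplatin in control cells, 3 up and 2 down, beside 55.0% of all genes (28.0% up and 27.0% down). In depleted cells 6 of the 7 did, 3 up and 3 down, beside 60.2% of all genes (32.4% up and 27.8% down). These shares are of the same order as the background. The comparisons share groups of libraries, so their values stand side by side and are not independent.

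**Figure D2:**
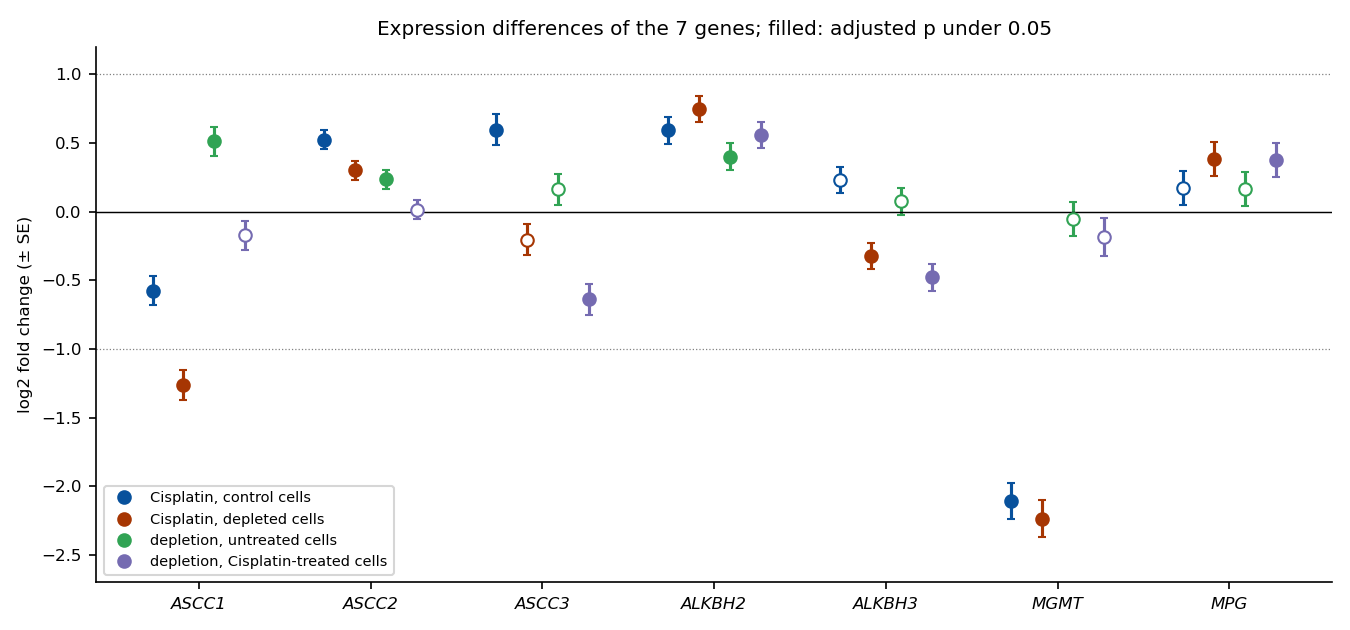
Log2 fold change with SE (vertical axis) of each of the 7 genes (horizontal axis) in the 4 comparisons, marked by colour. Filled points passed at an adjusted p under 0.05: MGMT lies at -2.10 and -2.24 for both Cisplatin comparisons, and ASCC3 is up with Cisplatin in control cells and down with depletion under Cisplatin.

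The genomic span of a gene moved with its Cisplatin response over all genes, so each of the 7 was set beside genes of like span. In control cells the median log2 difference of all tested genes was 0.14 up to 10 kb, 0.13 from 10 to 50 kb, -0.05 from 50 to 100 kb, -0.34 from 100 to 200 kb, -1.01 from 200 to 400 kb and -2.49 beyond. ASCC3 (chr6:100956070-101329248, 373 kb) and MGMT (chr10:131265448-131566271, 301 kb) both belong to the class of 739 genes from 200 to 400 kb. They went apart in it: 703 of the 739, or 95.1%, had a lower value in control cells than ASCC3, and 18.8% a lower one than MGMT. ASCC3 was still above 86.7% of the class in depleted cells, where the class median was -1.36. MGMT was above 24.1% of the class there.

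Among the shorter members, ASCC1 (chr10:73856278-73976892, 121 kb) was above 35.8% of the genes from 100 to 200 kb in control cells and above 19.4% in depleted cells. ALKBH2 (chr12:109525996-109531436, 5.44 kb) and MPG (chr16:127006-135852, 8.85 kb) were above 74.0% and 52.4% of the genes up to 10 kb in control cells. ASCC2 (chr22:30184597-30234271, 49.7 kb) and ALKBH3 (chr11:43902361-43941816, 39.5 kb) were above 74.4% and 57.5% of the genes from 10 to 50 kb in control cells, and ALKBH3 above 19.5% of them in depleted cells. The part of span in any single gene's value was not tested.

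**Figure D3:**
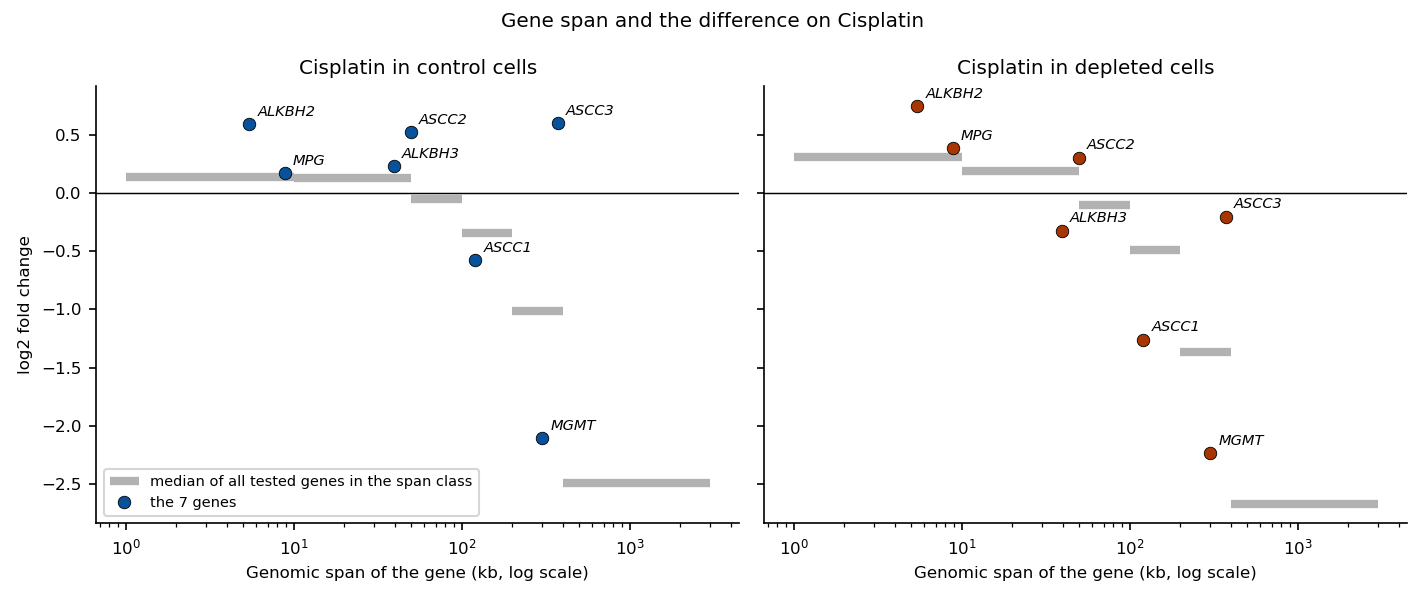
Genomic span in kb (horizontal log axis) against the log2 difference with Cisplatin (vertical axis) in control and in depleted cells. Grey bars are the medians of all tested genes in 6 span classes and points the 7 genes; ASCC3 (373 kb) sits far above the bar of its class and MGMT (301 kb) below it.

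Fewer of these transcripts were called with RNF113A depletion. Over untreated and treated cells together ALKBH2 rose by 0.48 (SE 0.07, adjusted p = 0.000139) and MPG by 0.27 (SE 0.09, adjusted p = 0.0241), and no member fell. These are 2 of 7 genes, beside 47.5% of all genes tested (23.5% higher and 24.0% lower). The MPG call was lost without untreated control replicate 1, any 1 of the 3 treated control libraries or treated depleted replicate 1 (0.20 to 0.26, adjusted p = 0.0515 to 0.0907), whereas ASCC3 passed without untreated control replicate 2 (-0.33, adjusted p = 0.0345).

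In untreated cells 3 of the 7 genes were higher after depletion and none was lower, beside 27.4% of all genes (12.8% higher and 14.6% lower). ASCC1 rose from 80.0 ± 7.03 to 114 ± 3.64 CPM, by 0.51 (adjusted p = 0.00415), and ALKBH2 from 30.6 ± 3.45 to 40.5 ± 2.49 CPM, by 0.40 (adjusted p = 0.00840), both with no overlap. ASCC2 rose by 0.24 (adjusted p = 0.0237), a call that was lost with only the 6 libraries compared (adjusted p = 0.0738) and without control replicate 1 or 2 or depleted replicate 2 or 3 (adjusted p = 0.0537 to 0.0828). MGMT was at -0.05 (adjusted p = 0.772), with 10.8 ± 1.058 and 10.4 ± 0.688 CPM.

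Under Cisplatin 4 of the 7 genes differed between depleted and control cells, 2 higher and 2 lower, beside 42.9% of all genes (21.1% higher and 21.8% lower). ASCC3 was lower by 0.64 in depleted cells (SE 0.11, adjusted p = 0.000905), and its partner ALKBH3 by 0.48 (SE 0.10, adjusted p = 0.00217). For both genes each of the 3 depleted libraries was below each of the 3 control libraries. ALKBH2 was higher by 0.56 (SE 0.09, adjusted p = 0.000708), again with no overlap. MPG was higher by 0.38 (adjusted p = 0.0262), which was lost without any 1 of the 3 treated control libraries or treated depleted replicate 1 or 3 (0.24 to 0.37, adjusted p = 0.0616 to 0.165). ASCC1 (-0.17, adjusted p = 0.214), MGMT (-0.18, adjusted p = 0.294) and ASCC2 (0.02, adjusted p = 0.866) did not pass. By span, the median log2 difference was -0.45 from 200 to 400 kb. There 48.0% of genes were called lower and 35.7% lay below ASCC3. From 10 to 50 kb the median was 0.03, with 18.2% called lower and 12.9% below ALKBH3. Up to 10 kb it was 0.20, with 33.6% called higher and 76.0% below ALKBH2. The part of span in these values was not tested.

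Whether Cisplatin acted differently in the 2 backgrounds was tested by the interaction term, which was negative and passed for 3 of the 7 genes, beside 4.25% of all genes (1.98% positive and 2.27% negative). It was -0.80 for ASCC3 (SE 0.16, adjusted p = 0.020), -0.68 for ASCC1 (SE 0.15, adjusted p = 0.0287) and -0.55 for ALKBH3 (SE 0.14, adjusted p = 0.0431). Each value stayed negative without any 1 library, but the number of calls ranged from 0 to 3. ASCC3 was lost without untreated control replicate 3, untreated depleted replicate 1 or treated depleted replicate 3 (-0.78 to -0.74, adjusted p = 0.0504 to 0.0634). ASCC1 was lost without untreated control replicate 1 or 3, any untreated depleted library or treated depleted replicate 1 or 3 (-0.77 to -0.61, adjusted p = 0.0528 to 0.0798). ALKBH3 was lost without untreated control replicate 1, treated control replicate 1 or 3 or any 1 depleted library (-0.66 to -0.50, adjusted p = 0.0517 to 0.112), and with scaling by library size ASCC3 alone was left. ASCC2 (-0.22, adjusted p = 0.211), MGMT (-0.13), ALKBH2 (0.15) and MPG (0.21) did not pass.

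Other genes of these pathways were counted from lists, to be read beside the 34.8% of all genes that rose and the 32.1% that fell with Cisplatin. Of 5 partners of the ASCC complex 2 rose and 2 fell with Cisplatin, led by the deubiquitinase OTUD4 (up by 0.53, adjusted p = 0.000184) and by USP9X, another deubiquitinase (fell by 0.53, adjusted p = 6.74e-05). Of the other 7 AlkB family genes 4 rose and 2 fell: ALKBH1 gained most (0.66, adjusted p = 1.33e-06), and FTO, an RNA demethylase, fell by 2.91 (adjusted p = 2.10e-09). Of 10 other DNA glycosylases 3 rose and 4 fell, with NEIL1 at 1.29 (adjusted p = 2.90e-05) and NEIL3 at -1.01 (adjusted p = 6.98e-06). NEIL1 was low, at 1.97 ± 0.459 CPM in the 6 untreated and 5.08 ± 1.83 CPM in the 6 treated libraries. Downstream in base excision repair 3 of 11 genes rose, led by APTX (0.81), which removes AMP from abortive ligation ends, and 2 fell, led by the endonuclease APEX1 (-0.42). In mismatch repair none of 7 rose and 4 fell, MSH6 by 0.95 (adjusted p = 3.63e-07).

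Depletion raised 23.5% and lowered 24.0% of all genes, and the counts in the lists are to be read beside these shares. With depletion none of the ASCC partners rose and 2 of 5 fell, USP9X by 0.46 (adjusted p = 0.000608). Of the other AlkB genes 1 of 7 fell, FTO at -0.37 (adjusted p = 0.0453), a call that was lost in 7 of the 12 fits that leave out a library (adjusted p = 0.0581 to 0.0801). Of the glycosylases 3 rose and 3 fell (NEIL1 0.60 and NEIL3 -0.51), of the later base excision genes 2 rose and 1 fell (XRCC1 -0.27), and of the mismatch repair genes none rose and 3 of 7 fell (PMS1 -0.61, adjusted p = 0.000913). All these differences are over untreated and treated cells together. USP9X passed in untreated (-0.37, adjusted p = 0.0295) and in treated cells (-0.55, adjusted p = 0.00236). FTO, NEIL1, NEIL3, XRCC1 and PMS1 passed in treated cells only. XRCC1 was at -0.06 in untreated (adjusted p = 0.596) and -0.48 in treated cells (adjusted p = 0.000391). Of these genes the interaction passed for XRCC1 alone (-0.42, adjusted p = 0.0422).

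Genes with the most similar pattern over the 12 libraries were taken from 9778 or 9779 genes that averaged 10 CPM or more, by Pearson's r of log2 CPM. MGMT was most like TBC1D5 (r = 0.997) and PEPD (r = 0.997), ASCC1 like ALG8 (r = 0.989) and YBEY (r = 0.988), ASCC2 like RNMTL1 (r = 0.985) and NSUN5 (r = 0.981), and ALKBH2 like LYAR (r = 0.986) and RELA (r = 0.986). The values were lower for MPG with RPL18 (r = 0.976) and FAU (r = 0.965), ALKBH3 with NFYC (r = 0.958) and TRIB3 (r = 0.940), and ASCC3 with UBE2D1 (r = 0.957) and CDK17 (r = 0.941). The 12 points share 4 groups and their depth, so these values are descriptions. No member was among the likest genes of another, but MGMT, below 10 CPM on average, was not among the genes searched.

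Intronic reads were then read as the pairs within a gene that were not counted on its exons, as a share of all its pairs. Over whole libraries this share was 1.66% to 2.25% in untreated and 1.82% to 4.41% in treated control cells, 3.03% to 3.97% in untreated and 7.09% to 7.39% in treated depleted cells. Treated control replicate 2 had the lowest and replicate 3 the highest value of its group. The share of all genes thus moved with both the shRNA and the drug, and the 7 genes were read against it. Of the 7, ALKBH3 had the largest share in untreated control cells (16.5% ± 0.482), and its span also holds a pseudogene of SEC14L1 on the same strand, whose part in these reads was not tested.

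Under Cisplatin the intronic to exonic ratio of 7 of 7 genes was higher in depleted than in control cells, beside 74.2% of all genes tested. The log2 gains ran from 0.86 in ASCC2 to 1.28 in ASCC1, around the median of 0.95 over all 12775 genes tested. When intronic and exonic reads were scaled by their own totals, so that a gain shared by all genes drops out, none of the 7 passed with edgeR (largest difference 0.31, in ASCC1, adjusted p = 0.149; 0 at an unadjusted p under 0.05). ASCC3 illustrates the levels: its share was 6.65%, 4.28% and 5.97% in treated control cells and 10.7%, 10.1% and 14.5% in treated depleted cells, with no overlap. The MGMT gain of 1.02 was lost without treated depleted replicate 3 (0.83, adjusted p = 0.0710).

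In untreated cells depletion raised the ratio of 2 of the 7 genes, ALKBH2 by 0.80 (adjusted p = 0.0333) and ASCC2 by 0.61 (adjusted p = 0.0430), beside 24.3% of all genes and a median of 0.46. Neither passed with own scaling (0.34 and 0.14), under which ALKBH3 was called lower (-0.44, adjusted p = 0.0491). The ALKBH2 call was lost without any 1 of the 3 control libraries or depleted replicate 1 or 2 (adjusted p = 0.0629 to 0.214), and the ASCC2 call without any 1 library other than treated control replicates 2 and 3 (adjusted p = 0.0515 to 0.169). Without treated control replicate 2 ASCC3 and MPG passed too (0.51 and 0.54), and without replicate 3 MPG did (0.54).

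In control cells Cisplatin raised the ratio of ASCC3 and of MGMT. The ASCC3 share rose from 2.32%, 2.29% and 2.03% to 6.65%, 4.28% and 5.97%, and the MGMT share from 2.75%, 2.09% and 3.86% to 10.1%, 11.97% and 12.9%. The gains of 1.38 (adjusted p = 8.94e-05) and 2.17 (adjusted p = 0.000141) were above the median of 0.28 over all genes and passed also with own scaling (1.17 and 1.92), under which MPG was called lower (-0.59, adjusted p = 0.0276). They were 2 of 7 genes, beside 15.3% of all genes. Without treated control replicate 2 ASCC1, ASCC2 and ALKBH2 passed as well (0.62 to 0.78, adjusted p = 0.000869 to 0.0208), and without replicate 3 MPG was lower (-0.86, adjusted p = 0.0184).

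The intronic and exonic reads behind these ratios were also read apart. For MGMT the intronic reads were few and near level, at 0.303 ± 0.0832 and 0.333 ± 0.0639 CPM of genic pairs (10 to 18 reads a library), while the exonic reads went from 10.3 ± 1.51 to 2.51 ± 0.154 CPM. For ASCC3 intronic reads went from 1.60 ± 0.275 to 6.75 ± 1.57 CPM, and exonic reads from 70.3 ± 8.90 to 113 ± 5.68 CPM. Span moved with this ratio too: the median gain over all genes was 0.14 up to 10 kb and 0.71 from 200 to 400 kb, a class in which 75.9% of 681 genes had a lower gain than ASCC3 and 90.3% a lower one than MGMT. The part of span in these gains was not tested.

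In depleted cells Cisplatin raised the ratio of 6 of the 7 genes, beside 58.6% of all genes and a median of 0.74. ASCC3 (2.04), MGMT (2.82) and ASCC1 (1.48) were past 2-fold and passed also with own scaling (1.31, 2.10 and 0.76). ASCC2, ALKBH2 and ALKBH3, at 0.77 to 0.87, did not pass with it, and MPG, at 0.26 (adjusted p = 0.442), was then lower (-0.46, adjusted p = 0.0359). The interaction of Cisplatin and depletion on the ratio passed for none of the 7 with edgeR (adjusted p = 0.0569 to 0.621), beside 2.89% of all genes. At an unadjusted p under 0.05 there were 3 of the 7. The share of all genes at that threshold is not given here, so this count cannot be read as a result about them. Without treated control replicate 3 it passed for ASCC1, ALKBH3 and MPG (1.04 to 1.21, adjusted p = 0.000924 to 0.00841), and without replicate 2 for ALKBH3 (0.85, adjusted p = 0.0448).

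**Figure D4:**
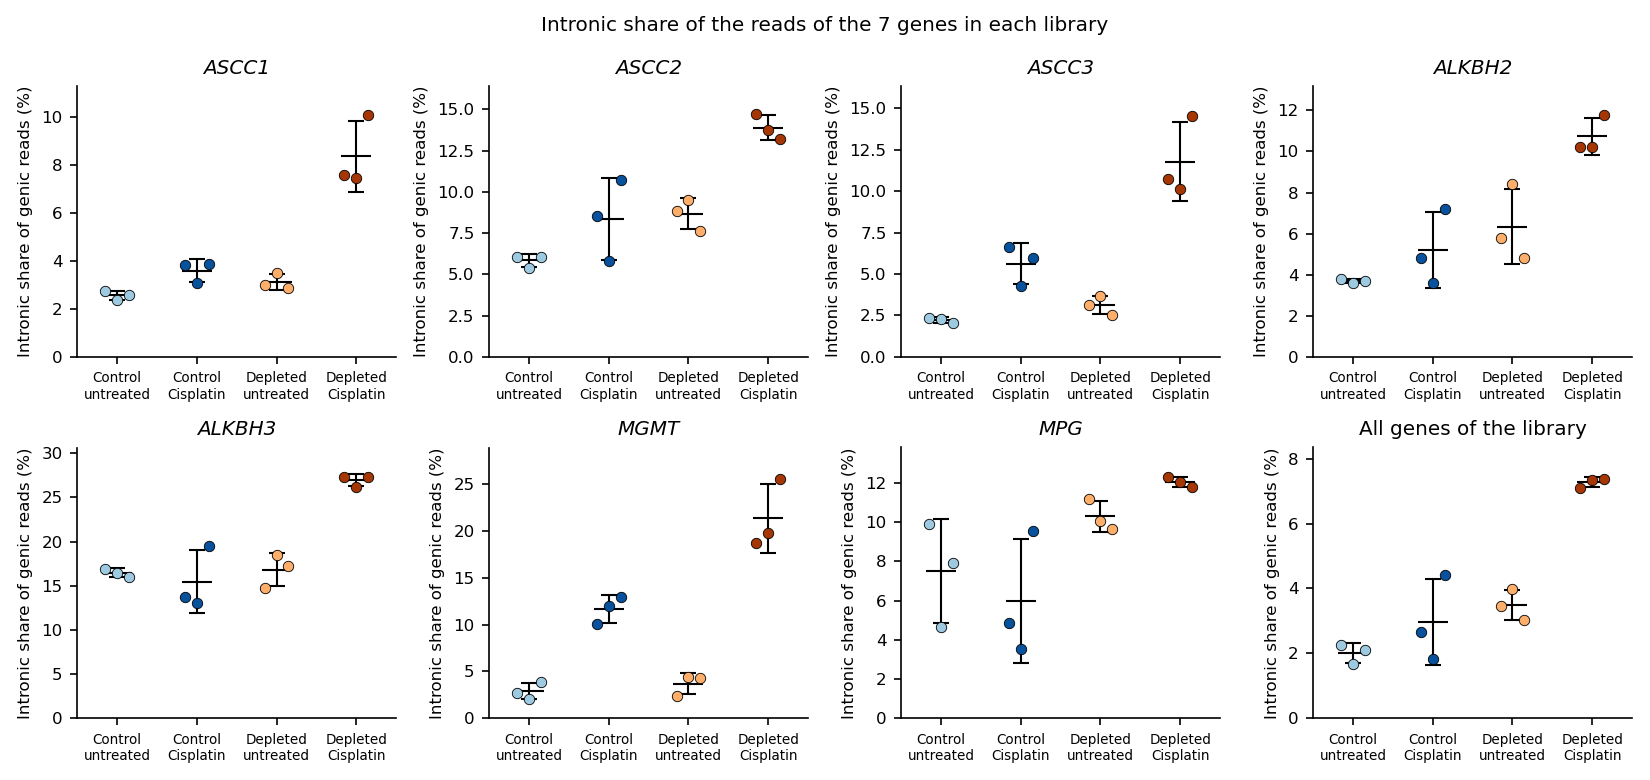
Intronic share in percent of the pairs of a gene (vertical axes from 0) for the 7 genes and for all genes of a library, in the 4 groups. Points are libraries and lines the mean ± SD of 3; the share is highest in treated depleted cells in each panel, and MGMT reaches 18.7% to 25.6% there.

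Splicing events of 5 categories were listed for 6 of the 7 genes, in 97 distinct events, of which 75 were skipped exons. ASCC2 had 36, ASCC1 30, ASCC3 13, ALKBH3 13, ALKBH2 4 and MPG 1, and MGMT had none. Between 75 and 83 of them were tested in a comparison, and none passed the test of edgeR at an adjusted p under 0.05 together with a difference of at least 20 points of inclusion level. Over all events this share was 0.0632% with Cisplatin in control cells, 0.249% in depleted cells, 0.0475% with depletion in untreated cells and 0.150% under Cisplatin. By adjusted p alone 2 events passed with Cisplatin in depleted cells and 2 with depletion under Cisplatin, beside 2.19% and 2.02% of all events, and none in the other comparisons, beside 0.477% with Cisplatin in control cells and 0.763% with depletion in untreated cells. At an unadjusted p under 0.05 there were 5 events with Cisplatin in control and 7 in depleted cells, 0 with depletion in untreated and 8 in treated cells. The share of all events at this threshold is not given here, so these counts cannot be read as a result about the 7 genes. Libraries of these tables are called a, b and c, since the tables do not number them.

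ALKBH2 held the largest shift, in the exon at chr12:109527814-109528012, a coding exon of 199 bases whose length is not a multiple of 3 and whose splice sites are printed above. Its inclusion level was 66.3%, 61.7% and 63.6% in untreated and 79.5%, 78.4% and 85.5% in treated depleted cells. The difference of 17.3 points passed (adjusted p = 0.00112), though not without untreated library b (16.2 points, adjusted p = 0.0723). Control cells went from 69.7%, 64.2% and 69.3% to 77.8%, 78.0% and 84.3%, with no overlap, but that difference of 12.3 points did not pass (unadjusted p = 0.00681, adjusted p = 0.505). Treated cells of both backgrounds were at 80.1% ± 3.68 and 81.1% ± 3.85.

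The first intron of ALKBH2 lies in the 5′ UTR at chr12:109530593-109531051 and has 459 bases, 150 of which are exon in another annotated transcript that starts at the inner acceptor printed above. Reads of that exon can therefore count as retention. Its inclusion level was 35.0%, 29.3% and 37.2% in treated control cells and 49.9%, 50.6% and 46.8% in treated depleted cells. The difference of 15.3 points passed (adjusted p = 0.0274, beside 21.9% of all retained introns), though not without treated control library a or any 1 treated depleted library (14.6 to 16.5 points, adjusted p = 0.0862 to 0.141). Untreated cells were at 39.7% ± 3.12 and 43.6% ± 3.21, which did not pass (adjusted p = 0.617).

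ASCC1 carried a rare exon at chr10:73958207-73958423, 217 bases long, which holds the stop codon shown above. Its inclusion level was 0.269% ± 0.108 in untreated and 0.332% ± 0.268 in treated control cells, 0.342% ± 0.208 in untreated and 2.51% ± 1.11 in treated depleted cells. These levels come from 1 to 8 inclusion reads a library in the first 3 groups and 19, 7 and 11 reads in the last. The rise passed against untreated depleted cells (adjusted p = 0.000304) and against treated control cells (adjusted p = 0.00664). The former was lost without treated depleted library a (1.82 points, adjusted p = 0.0969), and the latter without treated control library b or c or treated depleted library a or c (1.83 to 2.13 points, adjusted p = 0.131 to 0.321). Reads inside the exon count as inclusion beside junction reads, so reads of unspliced RNA can add to its level. The intronic share of ASCC1 was 2.87% to 3.51% in untreated and 7.44% to 10.1% in treated depleted cells. In treated control cells it was 3.06% to 3.89%. The part of unspliced RNA in the rise of this exon was not tested.

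The event with the widest difference in each remaining member did not pass. In ALKBH3 the exon at chr11:43913591-43913679 went from 87.5% ± 4.27 to 75.4% ± 2.23 with Cisplatin in control cells (adjusted p = 0.739). The level of the ASCC3 exon at chr6:101311940-101312090 against that at chr6:101296024-101296583 was 43.9% ± 1.84 in untreated and 52.5% ± 4.92 in treated control cells (adjusted p = 0.0765), and this passed without untreated library b (9.51 points, adjusted p = 0.0407) or treated library a (10.8 points, adjusted p = 0.0252). Both ASCC3 exons stand together in 2 of its 4 annotated transcripts, so they are not strictly exclusive. The ASCC2 exon at chr22:30218324-30218384 went from 99.4% ± 1.12 to 94.0% ± 1.84 with Cisplatin in depleted cells (adjusted p = 0.535). In ASCC1 the exon at chr10:73862608-73862725 went from 8.25% ± 1.01 to 12.4% ± 3.33 (adjusted p = 0.711) and in MPG that at chr16:129138-129330 from 9.01% ± 3.03 to 11.3% ± 1.41 (adjusted p = 0.711) in the same comparison.

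**Figure D5:**
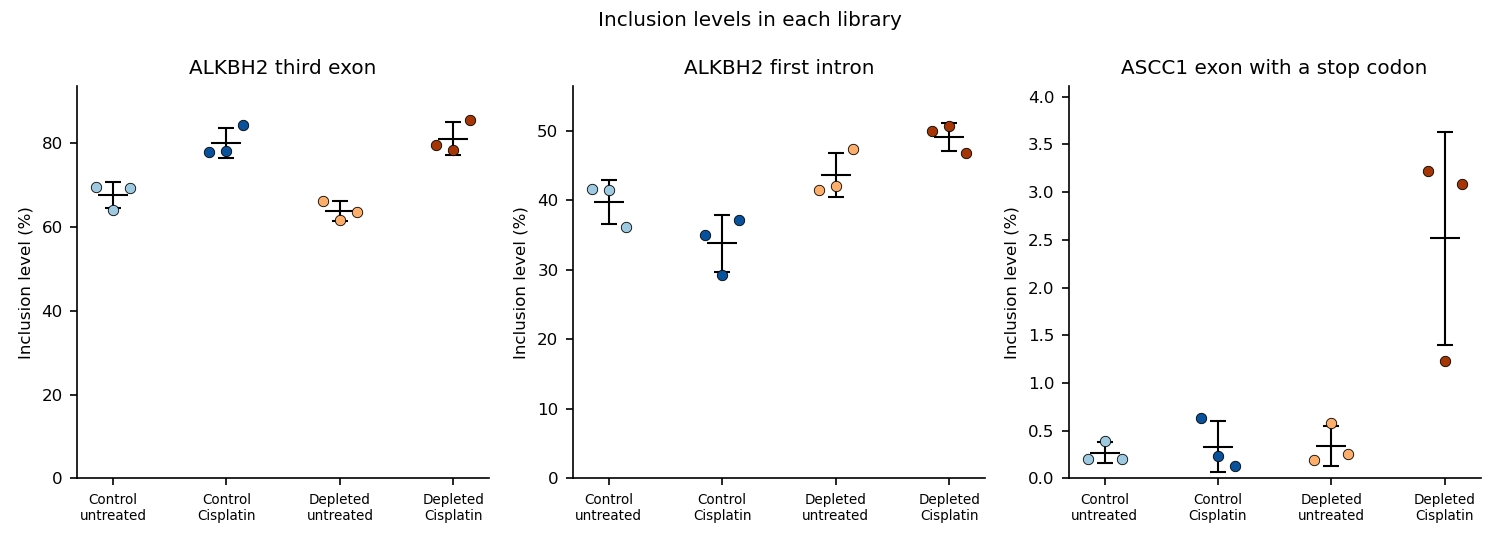
Inclusion level in percent (vertical axes from 0) of the ALKBH2 exon, the first ALKBH2 intron and the ASCC1 exon with a stop codon, in the 4 groups. Points are the libraries of the event tables and lines the mean ± SD of 3; the ALKBH2 exon is at 77.8% or above in all 6 treated libraries and at 69.7% or below in all 6 untreated ones.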

How the data were processed

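The authors sequenced stranded mRNA libraries of 3 biological replicates per condition, removed ribosomal, transfer and mitochondrial reads, trimmed the rest and aligned them to hg19 with STAR 2.5.2b. They deposited raw counts of read pairs per gene, of which the column on the strand of the gene was used, and counts on exons and whole genes of protein-coding Gencode v19 models from HTSeq. They also deposited, per event, counts of inclusion and skipping reads from rMATS, whose own p-values and fold changes were not used. The labels do not say that replicates were separate cultures, so p-values measure the spread between these libraries.

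Differences in expression came from edgeR 4.0.16 under R 4.3.3 (quasi-likelihood test, TMM factors, filterByExpr, Benjamini-Hochberg adjustment over all genes), in an additive model of drug and shRNA and in a model of the 4 groups with the interaction, over 12 libraries. RPKM and CPM were computed from the counts. Intronic reads were genic minus exonic counts, tested as a ratio in the same way, without genes that had fewer genic than exonic pairs. Events were tested per category on inclusion against skipping reads, within each comparison, and inclusion levels were corrected for the lengths of both forms. A change was called at an adjusted p under 0.05, for events also with 20 points of difference. Named were all 7 genes, the extremes of each list, the 2 likest genes and, per gene, the widest event with at least 50 reads in every library. The largest rise of 1 list is not reported here. Members and lists were chosen with earlier results of these data known. In control cells, deviations from the group means of untreated and treated libraries of like number correlated at 0.62, 0.74 and 0.48 over 11761 genes. Untreated replicate 1 also correlated with treated replicate 3 (0.54), and untreated replicate 3 with treated replicate 1 (0.53). Only replicate 2 was thus set apart, and pairing by number is uncertain. In no other pair of groups were all values of like number positive. Alternatives were DESeq2 1.42.0, other scaling, filters and strands, a replicate block and leaving out each library. Scripts were tested on simulated data with 200 changed genes or events each, under an assumed spread. Changed genes had a mean of at least 200 reads, or 50 intronic reads for the ratio, and were changed 2-fold. Changed retained introns had well-covered forms and 4-fold inclusion reads. No shift shared by all genes was simulated. The expression tests called 200 of them for Cisplatin, 200 for depletion and 155 for the interaction. The ratio test called 120 with depletion in untreated cells and 81 under Cisplatin, and the test of retained introns called 186. A ratio that did not pass may thus still have changed. Depth is given as total read pairs, and intervals from counting were not needed beside replicate SDs.

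On the opposite strand, ANAPC16 overlaps ASCC1 by 1135 bases, ALKBH3-AS1 overlaps ALKBH3 by 10978 bases and NPRL3 overlaps MPG by 1583 bases; the counts used follow strand.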

Additional observations from a re-analysis of the deposited data

Results flagged for a closer look

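The interaction test of edgeR called the Cisplatin response different between control and RNF113A-depleted cells in 3 of the 7 genes. The share called over all genes was 4.25%. The log2 response in depleted cells minus that in control cells was -0.80 for ASCC3, -0.68 for ASCC1 and -0.55 for ALKBH3, and all 3 values stayed negative without any 1 of the 12 libraries. The number of genes past the threshold ranged from 0 to 3 without 1 library and was 1 with scaling by library size, and ALKBH3 was lost with the replicate block over the 12 libraries (adjusted p = 0.0563).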

How the results depend on the processing

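Of 2150 comparisons of a single value with an alternative, 2003 kept direction and side of the threshold, 95 lost and 21 gained the call and 31 turned direction; of 241 comparisons of a count, 209 stayed within 1.5 times and 32 did not. The cause was not tested where none is named.

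Scaling by library size left 1 gene with an interaction in place of 3. At least 10 intronic and exonic reads in every library left 1 gene in place of 2 for the ratio with Cisplatin in control cells. MGMT, with 9 intronic reads in untreated depleted replicate 1, was not tested in that setting. Own scaling of intronic reads, which removes the shift shared by all genes, gave 1 gene in place of 2 with depletion in untreated cells and 0 in place of 7 under Cisplatin. That 1 gene was ALKBH3, called lower, while ALKBH2 and ASCC2 were lost. Events changed with Cisplatin in depleted cells, and with depletion under Cisplatin, numbered 1 at 10 points and 2 with no limit, in place of 0.

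Leaving out 1 library gave 5 to 5 genes with Cisplatin and 1 to 3 with depletion (additive), 5 to 6 with Cisplatin in control and 4 to 7 in depleted cells, 2 to 3 with depletion in untreated and 3 to 4 in treated cells, and 0 to 3 interactions. For the ratio it gave 2 to 5 and 6 to 6 with Cisplatin in control and depleted cells, and 0 to 4 and 6 to 7 with depletion in untreated and treated cells. For events it gave 0 to 0.

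With a replicate block over 12 libraries the counts were 5 with Cisplatin and 2 with depletion (additive), 5 and 6 with Cisplatin in control and depleted cells, 3 and 4 with depletion in untreated and treated cells, and 2 interactions, ALKBH3 being lost (adjusted p = 0.0563). With the block and only the 6 libraries compared they were 5, 7, 2 and 3, and for the ratio 2, 6, 2 and 7. It changed no call with Cisplatin in control cells, the only pair of groups in which libraries of like number all correlated positively. Elsewhere this fit of 6 libraries with the block lost ASCC2 (0.0936) and RNF113A (0.0778) with depletion in untreated cells. It also lost MPG in treated cells (0.0649) and gained ASCC3 with Cisplatin in depleted cells (0.00408). With only the 6 libraries and no block, ASCC2 was lost (0.0738) and ASCC3 gained (0.00867) as well, so these 2 changes did not need the block. No paired analysis was possible because libraries of the event tables carry no replicate numbers, for events.

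The values that turned direction were these. ALKBH3 with Cisplatin (additive) was 0.054 by library size and -0.12 to 0.013 without 1 library, and MGMT with depletion in untreated cells was -0.12 to 0.024 without 1. ASCC2 with depletion under Cisplatin was -0.0043 from unstranded counts, -0.022 with DESeq2 factors, -0.023 with the DESeq2 test and -0.055 to 0.015 without 1 library. Own scaling gave ratios of -0.46 for MPG with Cisplatin in depleted cells, -0.17 for ASCC1, -0.44 for ALKBH3 (adjusted p = 0.0491) and -0.10 for MGMT with depletion in untreated cells, -0.12 for ASCC2 under Cisplatin, and interactions of -0.26 for ASCC2 and -0.16 for ALKBH2. Without 1 library the ratio of ALKBH3 was -0.35 to 0.018 with Cisplatin in control cells and -0.053 to 0.14 with depletion in untreated cells, and the interaction of ASCC2 was -0.012 to 0.47. Inclusion differences without 1 library ran from -0.474 to 1.68 points (ASCC3 exon pair), -0.0457 to 0.149 (ASCC1 exon with a stop) and -0.288 to 2.81 (MPG exon) with depletion in untreated cells, from -0.0887 to 0.165 (ASCC1) and -0.970 to 0.881 (ASCC2) with Cisplatin in control cells, and from -1.12 to 3.21 (ALKBH2 exon) with depletion under Cisplatin. Depth is low for MGMT introns (9 to 22 reads), the ASCC1 exon with a stop (1 to 19 inclusion reads) and the ASCC2 exon (0 to 3 skipping reads).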
